A study of Mus musculus with 12 samples.

Results

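The genes described here are 9 genes of retinal bipolar cell identity and ON signaling: *Vsx1*, *Prkca*, *Pcp2*, *Trpm1*, *Grm6*, *Cabp5*, *Sebox*, *Gng13* and *Nyx*. They were chosen by name, by an exact match to the gene names of the FPKM table (fragments per kilobase of transcript, scaled to the mapped fragments of the library), and all 9 were found among its 55487 genes. All 9 also passed the filter on low values, for which a mean of over 1 FPKM was needed in 1 or more of the 6 groups and which kept 16471 genes. RNA-seq was made from 12 libraries of mouse retina, with 2 libraries in each group.

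Retinas came from C57BL/6J mice (WT), from C57BL/6J mice that had received 2 μL of an AAV2.7m8 vector carrying pU6-sh*Pax6*-GFP (sh*Pax6*), and from *Jnk3*-/- mice (JNK3 KO), in which the neuronal kinase JNK3 is missing in every cell. Each eye then received an intravitreal injection of 1 μL of PBS or of 40 mM NMDA, which is 40 nmol. NMDA is a glutamate receptor agonist that is toxic to retinal ganglion cells (RGCs) and amacrine cells at high dose. The study's methods place the sh*Pax6* injections in mice of 2 months, and the labels give neither an age nor the time of collection. The U6 promoter is active in any infected cell, so the knockdown was limited by which cells the virus reached. No library with the shScramble control vector was among the 12, so infection and loss of *Pax6* cannot be told apart. Each library was made from more than 3 retinas combined. The labels do not say that the 2 libraries of a group came from separate animals, so the p-values measure only the spread between these libraries.

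Bipolar cells carry signals from photoreceptors to the inner retina. ON bipolar cells read the glutamate that photoreceptors release in the dark with the receptor mGluR6, whose G protein keeps the cation channel TRPM1 closed. When light lowers glutamate release, the channel opens and the cell depolarizes. Rod bipolar cells are ON cells and are marked by PKCα, while cone bipolar cells comprise ON and OFF types.

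Among the 9 genes, *Grm6* encodes mGluR6, *Trpm1* the channel and *Nyx* nyctalopin, a leucine-rich repeat protein at the dendritic tips. *Gng13* encodes a G protein γ subunit and *Pcp2* a modulator of the Gαo protein. *Prkca* encodes PKCα, *Cabp5* a calcium-binding protein of rod bipolar and some cone bipolar cells, *Vsx1* a homeodomain protein of cone bipolar types and *Sebox* a homeobox protein found in rod bipolar cells. The genes lie on 6 chromosomes of GRCm38 and are all protein coding. *Trpm1* (chr7:64153835-64269775, + strand) and *Cabp5* (chr7:13398132-13408887, +) share chromosome 7, and *Grm6* (chr11:50850685-50866208, +), *Sebox* (chr11:78503447-78505081, +) and *Prkca* (chr11:107933387-108343928, -) share chromosome 11. The others are *Vsx1* (chr2:150680702-150689360, -), *Pcp2* (chr8:3623371-3625545, -), *Gng13* (chr17:25717171-25719406, +) and *Nyx* (chrX:13466110-13489313, +). Their spliced lengths, weighted by the level of each transcript, ran from 434 bases for *Gng13* and 582 for *Pcp2* to 5183 for *Nyx* and 7602 for *Prkca*.

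The bases before 5 annotated starts are shown. They are 2 starts of *Trpm1*, whose transcripts moved apart in the results below, and the start of *Cabp5*, which holds the same motif as *Trpm1*. The others are a start of *Pcp2* and a start of *Gng13*, the genes with the largest rises. Both of these genes have further starts, and none of these was matched to a transcript. Each stretch is the 250 bases before a RefSeq start on GRCm38.p6, 5′ to 3′ on the strand of the gene. Capitals mark TAATCC on either strand (GGATTA is its reverse complement), the core that the retinal homeodomain proteins CRX and OTX2 are known to bind. The windows lie at chr7:64153585-64153834 (+) and chr7:64185209-64185458 (+) for *Trpm1*, chr7:13397905-13398154 (+) for *Cabp5*, chr8:3625548-3625797 (-) for *Pcp2* and chr17:25717278-25717527 (+) for *Gng13*.
Trpm1 first start: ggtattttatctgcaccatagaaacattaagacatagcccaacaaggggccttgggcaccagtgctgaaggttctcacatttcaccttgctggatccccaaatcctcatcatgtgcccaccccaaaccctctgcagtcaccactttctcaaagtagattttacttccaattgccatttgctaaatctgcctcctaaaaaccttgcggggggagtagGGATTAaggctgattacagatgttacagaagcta
Trpm1 second start: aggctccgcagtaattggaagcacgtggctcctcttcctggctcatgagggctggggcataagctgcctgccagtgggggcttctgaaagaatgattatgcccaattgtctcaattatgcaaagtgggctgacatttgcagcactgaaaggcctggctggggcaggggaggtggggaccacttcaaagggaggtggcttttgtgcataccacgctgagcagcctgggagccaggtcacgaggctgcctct
Cabp5: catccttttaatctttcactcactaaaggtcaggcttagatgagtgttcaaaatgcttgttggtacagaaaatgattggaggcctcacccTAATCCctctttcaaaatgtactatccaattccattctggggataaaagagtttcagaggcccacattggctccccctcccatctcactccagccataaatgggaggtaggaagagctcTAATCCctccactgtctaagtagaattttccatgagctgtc
Pcp2: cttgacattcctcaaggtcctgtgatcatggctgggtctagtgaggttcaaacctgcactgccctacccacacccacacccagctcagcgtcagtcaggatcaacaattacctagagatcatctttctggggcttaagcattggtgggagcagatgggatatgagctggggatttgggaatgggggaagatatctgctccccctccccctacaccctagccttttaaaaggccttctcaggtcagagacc
Gng13: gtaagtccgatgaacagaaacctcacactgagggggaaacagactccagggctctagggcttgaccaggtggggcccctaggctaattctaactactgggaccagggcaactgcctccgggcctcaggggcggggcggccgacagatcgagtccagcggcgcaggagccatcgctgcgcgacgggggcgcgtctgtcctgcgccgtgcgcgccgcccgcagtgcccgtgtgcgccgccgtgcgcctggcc

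All 9 genes were in the RefSeq promoter table, with 14 windows in all. TAATCC occurred once before the first *Trpm1* start, 29 to 34 bases upstream, and at 2 places before *Cabp5*. The other 7 genes had none in these windows. Of all 32851 windows of this length, 6.25% held it. The palindrome TAATTA, a core for homeodomain proteins, occurred once before an internal *Pcp2* start, where 4.84% of all windows held it. These matches describe the letters only.

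Levels per length differed widely among the 9 genes under PBS. In WT PBS retinas *Gng13* (225 and 214 FPKM) and *Pcp2* (172 and 185 FPKM) were the most abundant, and *Vsx1* (6.97 and 6.51 FPKM) and *Nyx* (4.85 and 4.33 FPKM) the least. *Trpm1*, *Cabp5*, *Prkca*, *Sebox* and *Grm6* lay between 37.4 and 89.0 FPKM. *Cabp5* (43.9 and 44.4 FPKM) did not overlap *Prkca* (40.7 and 38.8 FPKM), whereas *Sebox* (37.6 in both) and *Grm6* (37.4 in both) differed by less than 1 FPKM.

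**Figure D1:**
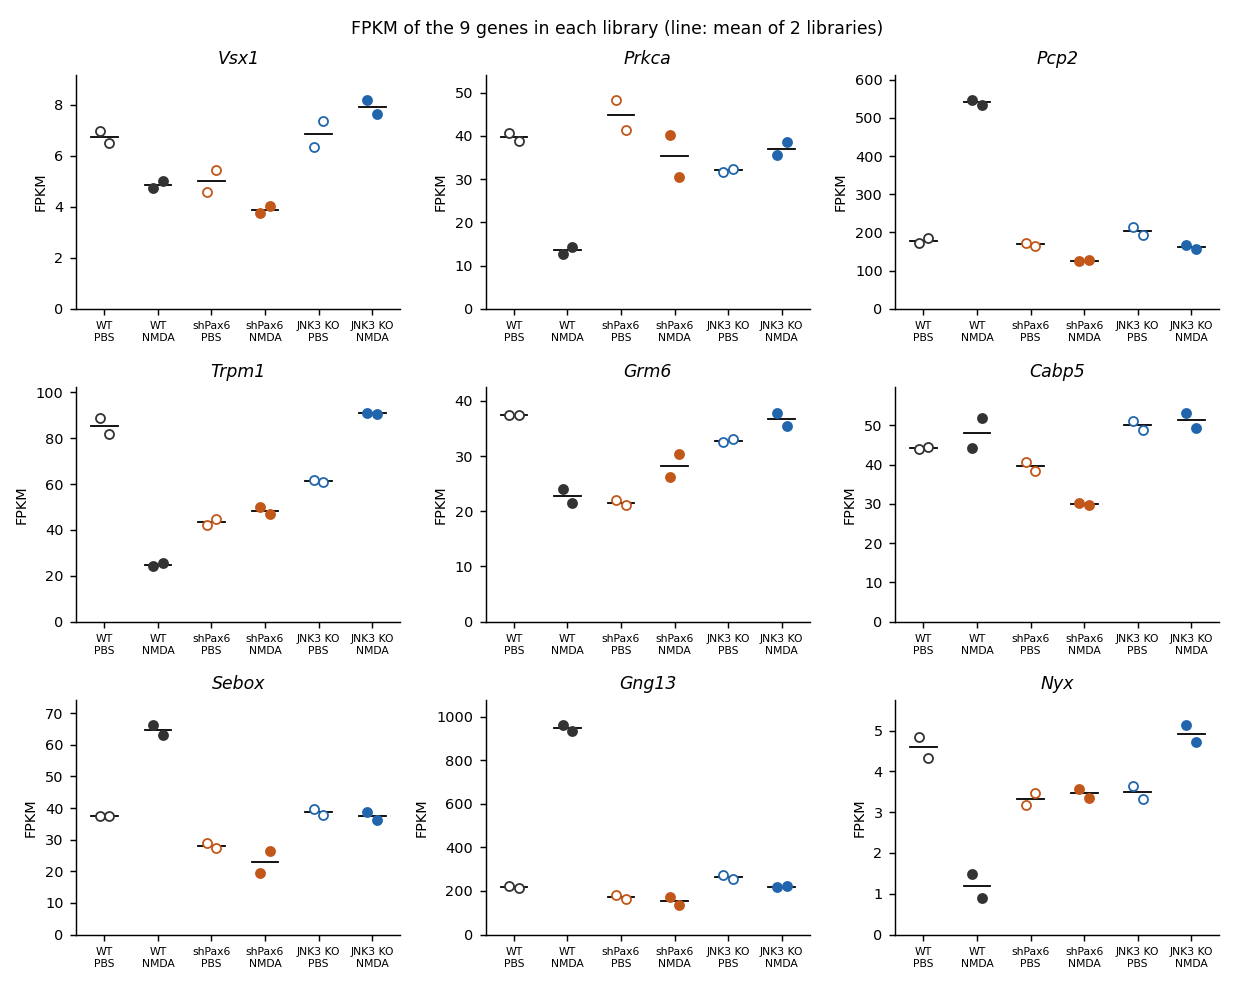
FPKM (y axis, from 0) of each gene in the 2 libraries of each group (x axis; open points PBS, filled points NMDA, lines the mean of 2 libraries). The WT NMDA libraries lie far above all others for *Gng13* and *Pcp2* and below all others for *Prkca*, *Trpm1* and *Nyx*.

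The first comparison asked how the genes respond to NMDA in WT retinas. The ON signaling genes did not move together: the receptor, the channel and nyctalopin fell, whereas the G protein γ subunit and the Gαo modulator rose. At a Benjamini-Hochberg adjusted p under 0.05 over all genes (limma), 3 of the 9 genes rose and 5 fell, while 26.0% of all genes tested rose and 33.8% fell. A call in this comparison was therefore common, and the count of members called is not a result about them.

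*Trpm1* read 89.0 and 81.7 FPKM in WT PBS and 24.3 and 25.6 FPKM in WT NMDA retinas. It fell by 1.77 on the log2 scale (SE 0.067, adjusted p = 8.09e-08, limma), to 0.29 of the PBS level. *Grm6*, its upstream receptor, read 37.4 in both PBS libraries and 24.1 and 21.5 FPKM after NMDA. It fell by 0.71 (SE 0.091, adjusted p = 0.000118, limma), a smaller change than that of the channel. *Nyx*, low in every library, read 4.85 and 4.33 FPKM under PBS and 1.48 and 0.89 FPKM after NMDA, where it fell by 1.90 (SE 0.24, adjusted p = 9.37e-05, limma).

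*Gng13* moved the other way, from 225 and 214 FPKM to 960 and 935 FPKM, 4.32-fold (log2 2.11, SE 0.10, adjusted p = 3.33e-07, limma). *Pcp2* rose from 172 and 185 FPKM to 548 and 535 FPKM, 3.04-fold (log2 1.60, SE 0.066, adjusted p = 1.21e-07, limma). In no library of another group did either gene reach the lower of its 2 WT NMDA values.

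Markers of rod bipolar cells split as well in the deposited FPKM. Neither *Prkca* nor *Sebox* stayed called after removal of a length trend, described below. *Prkca*, the standard marker of these cells, read 40.7 and 38.8 FPKM under PBS and 12.7 and 14.3 FPKM after NMDA, where it fell by 1.55 (SE 0.13, adjusted p = 9.28e-06, limma). *Sebox* rose from 37.6 in both libraries to 66.1 and 63.1 FPKM (log2 0.78, SE 0.13, adjusted p = 0.000519, limma). *Cabp5* read 43.9 and 44.4 FPKM under PBS and 44.2 and 51.9 FPKM after NMDA, and the groups overlapped (log2 0.12, 95% interval -0.07 to 0.31, adjusted p = 0.260, limma). *Vsx1* of cone bipolar cells fell from 6.97 and 6.51 to 4.73 and 5 FPKM, by 0.46 (SE 0.15, adjusted p = 0.0236, limma). The *Vsx1* call was lost when either WT PBS library or the first WT NMDA library was left out, with adjusted p from 0.0572 to 0.111.

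The direction of change in WT NMDA retinas followed transcript length, over the 9 genes and over the whole table. Genes under 1 kb had a median log2 change of 1.03, those of 1 to 2 kb 0.52, those of 2 to 4 kb -0.32 and those over 4 kb -1.17. Across 16452 genes Spearman's rho between length and log2 change was -0.56, and over the 9 genes it was -0.93. These are descriptions, since genes of the same libraries are not independent. The summed FPKM of a library was 541210 to 576922 in 10 libraries and 805627 and 820180 in the WT NMDA libraries.

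**Figure D2:**
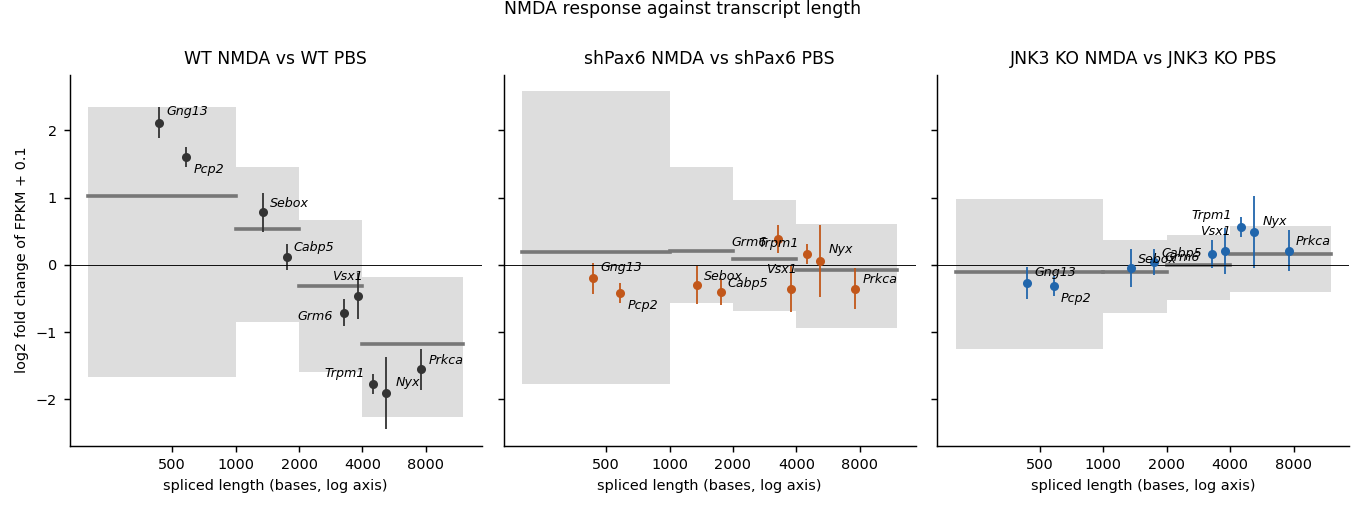
Log2 fold change of FPKM + 0.1 after NMDA (y axis) against spliced length in bases (x axis, log scale) in WT, sh*Pax6* and JNK3 KO retinas. Points are the 9 genes with 95% intervals, thick lines the median and grey bands the 10th to 90th percentile of all genes in 4 length classes. In WT the points descend from *Gng13* at 2.11 to *Nyx* at -1.90, along with the class medians.

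Within its own length class, *Gng13* stood at the 86.2nd percentile of the WT response and *Pcp2* at the 70.6th, among 2948 genes under 1 kb. *Trpm1* stood at the 23.6th, *Nyx* at the 18.9th and *Prkca* at the 32.8th percentile of 3003 genes over 4 kb. When a smooth trend on length was removed from each library, 4 of the 9 genes were still called: *Gng13* (log2 1.16) and *Pcp2* (0.47) as higher, *Trpm1* (-0.83) and *Nyx* (-0.80) as lower. With the trend removed, 23.8% of all genes were called higher and 22.1% lower, so this count too is close to that of all genes. *Prkca* was then at -0.10, *Grm6* at -0.19 and *Sebox* at 0.14, without a call. *Vsx1* turned to 0.26 and *Cabp5* to -0.19, also without a call. What part length or its handling had in the other values was not tested.

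**Figure D3:**
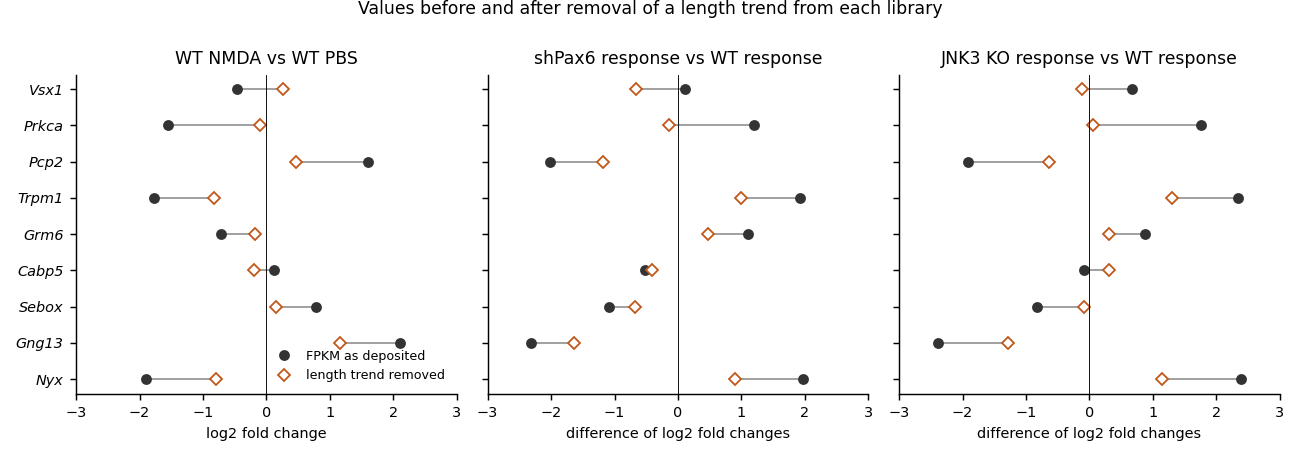
Values of the 9 genes from FPKM as deposited (filled circles) and after removal of the length trend of each library (open diamonds), for the WT response and for the difference of the sh*Pax6* and JNK3 KO responses from it (x axes, log2 units). *Prkca* moves from -1.55 to -0.10 in WT. *Trpm1*, *Nyx*, *Gng13*, *Pcp2*, *Grm6* and *Sebox* stay on their side of 0 in all 3 panels.

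Scaling to TPM, in which each gene is a share of the summed FPKM of its library so that every library has the same sum, moved the median of all genes in the WT response from -0.09 to -0.68. On that scale *Cabp5* was called lower (-0.46, adjusted p = 0.000797, limma) and *Sebox* was no longer called (0.21, adjusted p = 0.190). *Gng13* and *Pcp2* were called higher, and *Trpm1*, *Nyx*, *Prkca*, *Grm6* and *Vsx1* lower, on both scales. As TPM, 12.5% of all genes were called higher and 47.4% lower.

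Transcripts of *Trpm1* did not all move in the same direction in WT NMDA retinas. The table holds 23 *Trpm1* transcripts, of which 4 start within 93 bases of the first start, 9 around the second start, 31.5 kb downstream, and 10 further inside the gene. Transcripts of the first start summed to 62.7 and 57.8 FPKM in WT PBS and to 6.33 and 9.57 FPKM in WT NMDA retinas. Those of the second start summed to 6.22 and 4.35 FPKM in WT PBS and to 16.7 and 13.8 FPKM in WT NMDA. The share of *Trpm1* FPKM given to the second start was thus 7.0% and 5.3% under PBS and 68.8% and 53.9% after NMDA.

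The first start fell by more FPKM than the second gained. The change was mainly in *Trpm1*-201 (5711 bases, 27 exons) and *Trpm1*-217 (5493 bases, 27 exons). *Trpm1*-201 read 55.0 and 51.7 FPKM under PBS and 6.29 and 9.32 FPKM after NMDA. *Trpm1*-217 was listed at 0 in both PBS libraries and at 11.6 and 8.34 FPKM after NMDA. *Trpm1*-223, a transcript of 795 bases that starts downstream of both, went from 9.85 and 10.8 to 0.69 and 0.61 FPKM. In sh*Pax6* and JNK3 KO retinas the second start held 6.4% to 19.9% of *Trpm1* FPKM. Its transcripts summed to 2.85 to 8.63 FPKM in sh*Pax6* libraries. In JNK3 KO retinas they summed to 12.3 and 10.1 FPKM under PBS and 14.2 and 9.79 FPKM after NMDA, the latter overlapping WT NMDA. *Trpm1*-217 read 8.31 and 5.92 FPKM in JNK3 KO PBS and 4.99 and 0 FPKM in JNK3 KO NMDA retinas. The transcripts share most exons, their levels are estimates by RSEM, and the change in WT was noticed in the data and not tested. Both *Trpm1*-201 and *Trpm1*-217 are over 4 kb long, a class with a median log2 change of -1.17 in WT NMDA. The part of that length trend in the shift between starts was not tested.

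**Figure D4:**
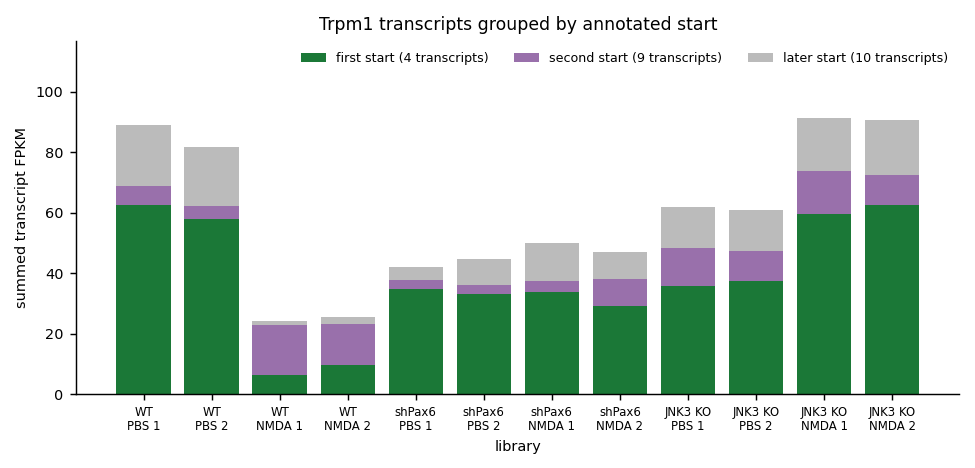
Summed FPKM of *Trpm1* transcripts (y axis) in each of the 12 libraries (x axis), stacked by annotated start. The first start (green) dominates in every library except the 2 WT NMDA libraries, where it holds 26.1% and 37.5% and the second start (purple) holds 68.8% and 53.9%.

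For *Gng13* both annotated transcripts rose in WT NMDA retinas. *Gng13*-201 (347 bases) went from 162 and 145 to 781 and 756 FPKM, and *Gng13*-202 (719 bases) from 63.0 and 68.2 to 179 and 180 FPKM. Most of *Pcp2* was *Pcp2*-204 (504 bases), at 134 and 141 under PBS and 497 and 477 FPKM after NMDA. The longer *Pcp2*-202 (1447 bases) read 20.9 and 24.6 under PBS and 25.9 and 19.2 FPKM after NMDA, with overlap. For *Grm6*, the coding transcript *Grm6*-201 (4291 bases) read 17.4 and 15.7 FPKM, then 8.45 and 6.98 FPKM. The noncoding *Grm6*-202 (3305 bases) read 11.2 and 12.3 FPKM, then 11.2 and 10.8 FPKM, and the noncoding *Grm6*-203 (1463 bases) read 8.73 and 9.36 FPKM, then 4.51 and 3.81 FPKM.

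*Pcp2* lies inside *Pet100*, a gene on the opposite strand for an assembly factor of cytochrome c oxidase, and the sources do not say that reads were counted by strand. *Pet100* (549 bases) read 22.3 and 23.7 FPKM in WT PBS and 130 and 160 FPKM in WT NMDA retinas, so reads of the 2 genes may not be fully separated. The 3′ end of *Gng13* overlaps *Chtf18* on the other strand, which stayed between 0.50 and 4.38 FPKM in all libraries. The antisense gene *Gm12660* within *Grm6* stayed between 0.46 and 2.82 FPKM.

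The second comparison was the NMDA response in sh*Pax6* retinas, which checks the same toxin where *Pax6* was targeted. *Pax6* read 94.6 and 92.8 FPKM in sh*Pax6* PBS against 173 and 177 FPKM in WT PBS libraries. After NMDA it read 67.5 and 58.7 FPKM with sh*Pax6* and 55.4 and 53.8 FPKM in WT retinas, so it was not lower in the knockdown there. *Pcp2* and *Cabp5* fell and *Grm6* rose, and the other 6 genes were not called. Of all genes, 19.1% rose and 11.0% fell.

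*Pcp2* read 173 and 164 FPKM under PBS and 124 and 128 FPKM after NMDA in sh*Pax6* retinas, where it fell by 0.42 (SE 0.066, adjusted p = 0.00145, limma). *Cabp5* fell from 40.7 and 38.5 to 30.1 and 29.6 FPKM, by 0.41 (SE 0.084, adjusted p = 0.00626, limma). *Grm6* rose from 22.0 and 21.1 to 26.2 and 30.3 FPKM (log2 0.39, SE 0.091, adjusted p = 0.0115, limma). With the spread taken from the compared groups alone, only the *Pcp2* call remained among the 9.

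*Trpm1* read 42.1 and 44.7 FPKM under PBS and 50.03 and 46.9 FPKM after NMDA (log2 0.16, adjusted p = 0.106, limma). *Nyx* read 3.17 and 3.48, then 3.58 and 3.36 FPKM, with overlap. *Prkca* read 48.4 and 41.3, then 40.1 and 30.4 FPKM. *Gng13* read 184 and 165, then 172 and 133 FPKM, *Sebox* 28.9 and 27.3, then 19.4 and 26.5 FPKM, and *Vsx1* 4.59 and 5.45, then 3.74 and 4.03 FPKM. *Prkca* and *Gng13* were called lower without the first sh*Pax6* NMDA library (log2 -0.55 and -0.38), and *Sebox* without the second (-0.53).

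The third comparison was the NMDA response in JNK3 KO retinas. *Trpm1* rose and *Pcp2* fell, and the other 7 genes were not called, where 4.33% of all genes rose and 6.10% fell. *Mapk10*, which encodes JNK3, read 9.47 and 8.75 FPKM in JNK3 KO PBS against 42.8 and 50.7 FPKM in WT PBS libraries. After NMDA it read 6.65 and 13.8 FPKM in JNK3 KO and 8.98 and 6 FPKM in WT retinas, which overlapped.

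*Trpm1* rose from 61.8 and 61.0 to 91.3 and 90.7 FPKM (log2 0.57, SE 0.067, adjusted p = 0.00123, limma). *Pcp2* fell from 214 and 192 to 168 and 158 FPKM, by 0.32 (SE 0.066, adjusted p = 0.0170, limma). The *Pcp2* call was lost when the first JNK3 KO PBS library or either JNK3 KO NMDA library was left out (adjusted p 0.0586 to 0.139), with the spread from the compared groups alone (0.0936), without the intensity trend (0.0729) and after removal of the length trend (log2 -0.16, adjusted p = 0.171, limma).

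*Grm6* read 32.5 and 33.1 FPKM, then 37.9 and 35.5 FPKM in JNK3 KO retinas (log2 0.16, adjusted p = 0.327, limma). *Nyx* read 3.65 and 3.32, then 5.13 and 4.73 FPKM (log2 0.49, 95% interval -0.04 to 1.02, adjusted p = 0.250). *Prkca* read 31.7 and 32.4, then 35.5 and 38.6 FPKM, and *Gng13* 271 and 257, then 217 and 221 FPKM, neither called. *Cabp5* (51.1 and 48.9, then 53.3 and 49.4 FPKM) and *Sebox* (39.8 and 37.9, then 38.8 and 36.3 FPKM) overlapped between PBS and NMDA. *Vsx1* read 6.36 and 7.36, then 8.20 and 7.63 FPKM.

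**Figure D5:**
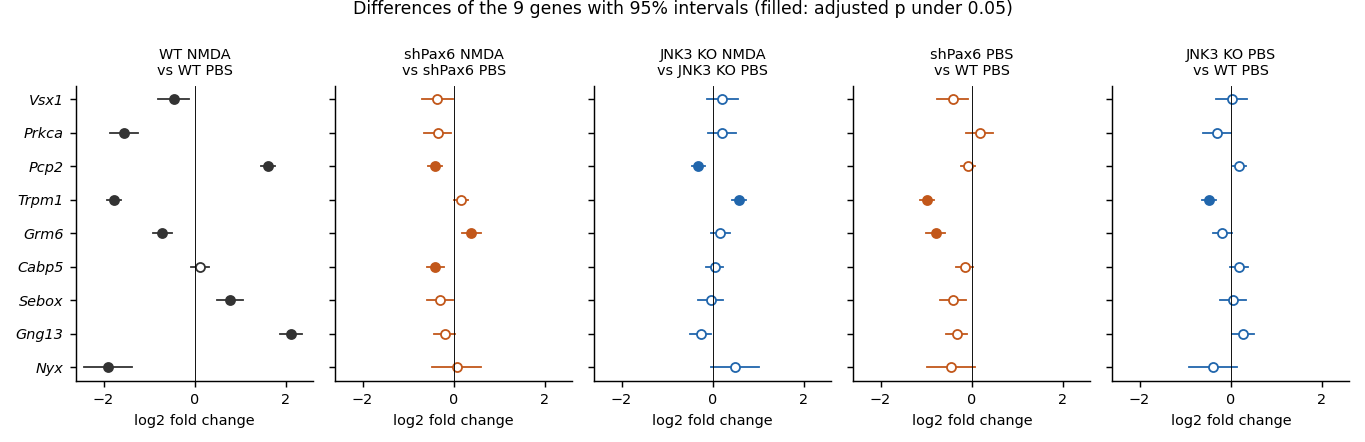
Log2 fold changes (x axes) of the 9 genes (y axis) with 95% intervals in 3 NMDA responses and 2 comparisons under PBS, where filled points passed an adjusted p under 0.05. The WT response spans -1.90 to 2.11, and every point of the other 4 panels lies between -0.97 and 0.57.

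The next question was whether the genotypes differed before NMDA. In sh*Pax6* PBS retinas the ON receptor and its channel were lower than in WT PBS retinas. *Trpm1* was 42.1 and 44.7 against 89.0 and 81.7 FPKM, lower by 0.97 on the log2 scale (log2 -0.97, SE 0.067, adjusted p = 3.81e-05, limma). *Grm6* was 22.0 and 21.1 against 37.4 FPKM in both WT libraries (log2 -0.79, SE 0.091, adjusted p = 0.000538, limma). None of the 9 genes was called higher (limma, also 0 at an unadjusted p under 0.05) and 2 were called lower (5 unadjusted), where 5.36% of all genes were higher and 11.2% lower.

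Both calls held under every alternative run except an added limit of 1 on the absolute log2 change, with *Trpm1* at -0.86 and *Grm6* at -0.69 after removal of the length trend. *Sebox* (log2 -0.42, adjusted p = 0.0516) and *Gng13* (-0.33, adjusted p = 0.0610) missed the threshold (limma) and passed it on the TPM scale (adjusted p = 0.0432 and 0.0472). *Prkca* did not differ detectably (48.4 and 41.3 against 40.7 and 38.8 FPKM, log2 0.17, 95% interval -0.13 to 0.47), nor did *Pcp2* (-0.08, -0.23 to 0.07). *Vsx1* (-0.42), *Nyx* (-0.45) and *Cabp5* (-0.16) were not called.

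In JNK3 KO PBS retinas *Trpm1* was lower than in WT PBS retinas, at 61.8 and 61.0 FPKM (log2 -0.47, SE 0.067, adjusted p = 0.0174, limma). It was 1 of 9 genes called lower (2 unadjusted) with none called higher (limma, 2 at an unadjusted p under 0.05), where 1.10% of all genes were higher and 0.407% lower. The call was lost when the first WT PBS library or either JNK3 KO PBS library was left out (log2 -0.48 to -0.41). It was also lost with the spread from the compared groups alone (adjusted p = 0.137, limma), without the intensity trend (0.111) and after removal of the length trend (0.0592). An added limit of 1 on the absolute log2 change removed it too. The 8 others had log2 differences from -0.39 for *Nyx* to 0.27 for *Gng13*, with adjusted p from 0.208 to 0.988 (limma).

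The last comparisons asked whether the NMDA response differed from that of WT. They share the 4 WT libraries, so the 2 sets of values are not independent of each other. The sh*Pax6* response exceeded the WT response for *Nyx*, *Trpm1*, *Prkca* and *Grm6* and lay below it for *Gng13*, *Pcp2*, *Sebox* and *Cabp5*, where 31.4% of all genes were called above and 18.3% below. The JNK3 KO response exceeded it for *Nyx*, *Trpm1*, *Prkca*, *Grm6* and *Vsx1* and lay below it for *Gng13*, *Pcp2* and *Sebox*, where 27.9% of all genes were above and 23.5% below. Spearman's rho between length and these differences was 0.93 over the 9 genes in both cases, and 0.42 and 0.57 over all genes.

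*Trpm1* responded by -1.77 in WT, 0.16 in sh*Pax6* and 0.57 in JNK3 KO retinas, so that the responses differed from WT by 1.93 (SE 0.095, adjusted p = 1.81e-06) and 2.34 (SE 0.095, adjusted p = 4.12e-07, limma). Both differences were called after removal of the length trend, at 0.99 and 1.295. *Gng13* responded by 2.11, -0.20 and -0.27, with differences of -2.31 and -2.38 (SE 0.15 for both) that were -1.64 and -1.28 after removal of the length trend, again called. The same held for *Pcp2*, at -2.02 and -1.92 with the deposited values and -1.18 and -0.64 without the trend.

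*Prkca* behaved otherwise. Its response differed from WT by 1.20 in sh*Pax6* and 1.76 in JNK3 KO retinas, but by -0.14 and 0.05 after removal of the trend, without a call. *Grm6* in JNK3 KO retinas went from 0.87 to 0.31 without the trend (adjusted p = 0.0811, limma). *Sebox* there went from -0.83 to -0.080 (adjusted p = 0.760), and was not called as TPM (-0.24, adjusted p = 0.307) or after quantile normalization (-0.43, adjusted p = 0.0819, limma). The *Cabp5* difference in sh*Pax6* retinas, -0.52, was -0.00020 as TPM (adjusted p = 1, limma). *Vsx1* exceeded the WT response by 0.67 in JNK3 KO retinas and turned to -0.12, and its call was also lost after quantile normalization (0.28) and without the first library of WT PBS, WT NMDA, JNK3 KO PBS or JNK3 KO NMDA (0.56 to 0.63). In sh*Pax6* retinas it turned from 0.10, not called, to -0.67, called. *Nyx* kept its sign in both (0.90 and 1.15 without the trend), with the sh*Pax6* difference no longer called (adjusted p = 0.0636). Without the trend, 16.8% of all genes were called above and 19.4% below the WT response in sh*Pax6* retinas, and 15.8% above and 18.4% below it in JNK3 KO retinas.

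The rest of the mGluR6 cascade was read from 8 further genes: *Gnao1* (Gαo), *Gnb3* and *Gnb5* (Gβ subunits), *Rgs7* and *Rgs11* (GTPase accelerators), *Rgs9bp* (an RGS anchor), *Gpr179* (an orphan receptor that holds the RGS proteins) and *Lrit3* (a leucine-rich repeat protein needed to place TRPM1). In WT NMDA retinas 1 was called higher and 5 lower, where 26.0% of all genes were called higher and 33.8% lower. The median log2 change of the 8 was -0.92, against -0.09 over all genes. *Gnb3*, the partner of the Gγ13 subunit, rose from 556 and 549 to 945 and 952 FPKM (log2 0.78). *Lrit3* fell from 22.6 and 21.8 to 2.31 and 3.15 FPKM (log2 -2.99), *Gnao1* from 157 and 155 to 65.6 and 63.6 FPKM (log2 -1.27), *Rgs9bp* by 1.01, *Gpr179* by 1.01 and *Rgs7* by 0.83. *Lrit3* is 2365 and *Gnao1* 2853 bases long, a class in which the median was -0.32. *Rgs9bp* (6590 bases) and *Gpr179* (7582 bases) lie in the class over 4 kb, with a median of -1.17. For *Rgs7* (1653 bases) and *Gnb3* (1673 bases) the class median was 0.52. *Gnb5* (336 and 346, then 356 and 342 FPKM) and *Rgs11* (42.7 and 46.7, then 50.3 and 43.9 FPKM) overlapped.

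In sh*Pax6* retinas 2 of these 8 rose after NMDA, *Gnb3* by 0.58 and *Rgs11* by 0.46 on the log2 scale. A further 3 fell, *Gnao1* by 0.89, *Rgs9bp* by 0.85 and *Gnb5* by 0.13. Over all genes, 19.1% rose and 11.0% fell there. *Lrit3* stayed at 33.6 and 32.4, then 25.7 and 32.0 FPKM, and its response exceeded that of WT by 2.79 (adjusted p = 2.22e-05, limma). In JNK3 KO retinas none rose (limma, 1 at an unadjusted p under 0.05), and *Gnao1* fell by 0.33 and *Gnb5* by 0.16. There, 4.33% of all genes rose and 6.10% fell. Under PBS 4 of the 8 were higher in sh*Pax6* than in WT retinas (*Gnb3*, *Lrit3*, *Rgs9bp* and *Gnb5*, by 0.43 to 0.60) and 4 lower (*Rgs7*, *Gnao1*, *Gpr179* and *Rgs11*, by log2 -1.03 to -0.60), so that every member of this list was called. Over all genes, 5.36% were higher and 11.2% lower in that comparison. All 8 rod and all 8 cone markers were higher in the same comparison, and *Gnb3*, *Gnb5* and *Rgs9bp* are also expressed in photoreceptors. In bulk retina the cells behind the values of the 8 genes, *Lrit3* among them, are not known. The part of the photoreceptor marker shift in these values was not tested. None was called in JNK3 KO PBS retinas (limma, 2 higher and 1 lower at an unadjusted p under 0.05).

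Of 11 bipolar transcription factors, 1 rose and 6 fell in WT NMDA retinas, where 26.0% of all genes rose and 33.8% fell. *Neurod4* fell by 1.53, *Isl1*, which ON bipolar cells need, by 1.36, *Bhlhe22* by 1.23 and *Otx2*, which photoreceptors and bipolar cells need, by 0.63. The class median was -0.32 for *Neurod4*, *Isl1* and *Bhlhe22* (3345, 2014 and 3344 bases) and 0.52 for *Otx2* (1767 bases). Bulk retina does not show which cells these falls came from. In the same comparison 9 of 11 RGC and 7 of 8 amacrine markers fell, and the part of those cells in the falls was not tested. *Neurod4* went from 52.5 and 50.1 to 17.1 and 18.2 FPKM. In JNK3 KO retinas it rose from 37.6 and 38.8 to 77.7 and 77.4 FPKM (log2 1.02, adjusted p = 9.59e-05, limma), 1 of 3 that rose with none that fell. There, 4.33% of all genes rose and 6.10% fell. In sh*Pax6* retinas 2 of the 11 rose after NMDA, among them *Otx2* by 0.16 on the log2 scale. A further 2 fell, *Bhlhe22* by 1.43 and *Neurod4* by 0.23. Over all genes, 19.1% rose and 11.0% fell in sh*Pax6* retinas. Under PBS 1 of the 11, *Otx2*, was higher in sh*Pax6* than in WT retinas, and 3 were lower, *Isl1* and *Neurod4* among them. There, 5.36% of all genes were higher and 11.2% lower. In JNK3 KO PBS retinas only *Neurod4* was called, as lower (-0.42), where 1.10% of all genes were higher and 0.407% lower.

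Of 11 bipolar type markers and receptors, 1 rose and 7 fell in WT NMDA retinas, where 26.0% of all genes rose and 33.8% fell. Among the called genes the largest changes were in *Car8*, a carbonic anhydrase-related protein (-1.18), *Gabrr3*, a GABA receptor subunit (-1.17), and *Hcn4*, a pacemaker channel (-0.86), and *Scgn*, a calcium-binding protein, rose by 0.60. *Cabp2*, another calcium-binding protein, had a larger change with a wide error and was not called (log2 1.58, SE 1.27, adjusted p = 0.317, limma). *Gabrr3* (4271 bases) and *Hcn4* (6118 bases) lie in the class over 4 kb, whose median in WT NMDA was -1.17. The class medians were -0.32 for *Car8* (3853 bases) and 0.52 for *Scgn* (1409 bases). In sh*Pax6* retinas 6 fell, among them *Hcn4* (-1.19), and none rose (limma, 1 at an unadjusted p under 0.05). There, 11.0% of all genes fell and 19.1% rose. Under PBS 7 of the 11 were lower in sh*Pax6* than in WT retinas and none was higher, also at an unadjusted p under 0.05. In that comparison 11.2% of all genes were called lower and 5.36% higher. The largest of these 7 differences were in *Syt2* (-1.15), *Grik1* (-1.10), *Hcn4* (-0.95) and *Vstm2b* (-0.72), and the other 3 lay between -0.64 and -0.58. *Grik1*, a kainate receptor of OFF cone bipolar cells, read 34.1 and 30.0 FPKM there against 69.7 and 67.9 FPKM in WT PBS retinas. In JNK3 KO retinas *Grik1* (0.42) and *Car8* (0.39) rose after NMDA and none fell, where 4.33% of all genes rose and 6.10% fell. None of the 11 was called under PBS there (limma, 1 higher and 2 lower at an unadjusted p under 0.05).

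On the photoreceptor side of the same synapse, 6 genes were counted. For comparison, 26.0% of all genes rose and 33.8% fell in WT NMDA retinas. *Cabp4*, a modulator of the presynaptic calcium channel, rose in WT NMDA retinas by 1.20, and *Dag1*, *Elfn1*, the adhesion protein that pairs with mGluR6, and *Cacna2d4* fell by 1.21, 0.48 and 0.42. The WT NMDA class median was -1.17 for *Dag1* (5081 bases) and 0.52 for *Cabp4* (1528 bases). It was -0.32 for *Elfn1* (3275 bases) and *Cacna2d4* (3800 bases). *Cabp4* fell in sh*Pax6* (-0.28) and JNK3 KO (-0.40) retinas after NMDA, where the other 5 were not called. Over all genes, 19.1% rose and 11.0% fell in sh*Pax6* retinas after NMDA, and 4.33% rose and 6.10% fell in JNK3 KO retinas. Under PBS 5 of the 6 were higher in sh*Pax6* than in WT retinas, *Cabp4* by 0.88 and *Elfn1* by 0.66, the opposite direction to *Grm6* and *Trpm1*. All 8 rod and all 8 cone markers were higher in the same comparison, and the part of that shift in these genes was not tested. In that comparison 5.36% of all genes were higher and 11.2% lower. Of the 6, only *Cabp4* was higher in JNK3 KO PBS retinas (0.49), where 1.10% of all genes were higher and 0.407% lower.

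The libraries also differed in markers of other retinal cell types. Over all genes, 5.36% were called higher and 11.2% lower in sh*Pax6* than in WT PBS retinas. In JNK3 KO PBS retinas 1.10% of all genes were higher and 0.407% lower. In bulk retina, fewer bipolar cells and less RNA per bipolar cell cannot be told apart. In sh*Pax6* against WT PBS retinas all 8 rod and all 8 cone markers were higher, with summed levels of 32917 to 35621 against 24901 to 24993 FPKM for rods and 1216 to 1316 against 644 to 669 FPKM for cones. There, 6 of 11 RGC markers (170 in both libraries against 569 and 591 FPKM), 3 of 8 amacrine and 1 of 4 horizontal markers were lower, 2 of 6 Müller glia markers were higher and 1 lower, and 2 of 10 microglia and leukocyte markers were higher and 5 lower. In JNK3 KO PBS retinas 6 rod markers, 1 cone and 1 Müller glia marker were higher, and no marker of RGCs, amacrine, horizontal, microglia or leukocyte cells was called (limma, 1 RGC, 1 amacrine, 0 horizontal and 4 microglia and leukocyte markers at an unadjusted p under 0.05).

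After NMDA in WT retinas, 9 of 11 RGC, 7 of 8 amacrine, 4 of 4 horizontal and 5 of 6 Müller glia markers fell, and 1 Müller glia marker rose. Over all genes, 33.8% fell and 26.0% rose. Rod markers (4 higher, 2 lower) and cone markers (2 higher, 3 lower) split. Of 10 microglia and leukocyte markers 6 rose and 2 fell, and their sum went from 250 and 276 to 1913 and 1960 FPKM, mostly through *S100a8* and *S100a9*, which neutrophils express strongly. *Csf3r*, the neutrophil growth factor receptor, read 18.2 and 18.9, then 17.0 and 14.2 FPKM (log2 -0.26, not called), and *Ptprc*, which encodes the leukocyte antigen CD45, fell by 1.45. *S100a9* went from 92.9 and 99.6 to 1146 and 1115 FPKM, and *S100a8* and *S100a9* are 486 and 513 bases long. RGC markers summed to 318 and 336 FPKM after NMDA, and none was at 0 in WT.

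In sh*Pax6* retinas 8 of 11 RGC and 8 of 8 amacrine markers fell after NMDA, with 7 rod markers lower and 1 higher, all 8 cone markers lower, 1 horizontal marker lower, 2 Müller glia markers each way and 8 microglia and leukocyte markers higher. There, 11.0% of all genes fell and 19.1% rose. *Pou4f2*, *Pou4f3* and *Isl2*, which mark RGCs, were listed at 0 in 1 of the 2 libraries. In JNK3 KO retinas 7 RGC, 3 amacrine, 6 rod and 7 cone markers fell, 3 Müller glia markers rose and 2 fell, 1 microglia and leukocyte marker rose and 5 fell, and no horizontal marker was called. Over all genes, 4.33% rose and 6.10% fell in JNK3 KO retinas after NMDA. The part of these marker shifts in the values of the 9 genes was not tested. The members' own sum was 649 to 657 FPKM in WT PBS and 1653 to 1685 FPKM in WT NMDA retinas, of which *Gng13* and *Pcp2* made up most.

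Levels of the 9 genes across the 12 libraries fell into sets that ran against each other. The libraries share groups, so these correlations are descriptions. The short *Gng13*, *Pcp2* and *Sebox* (434, 582 and 1350 bases) ran against the long *Prkca*, *Nyx* and *Trpm1* (7602, 5183 and 4486 bases). The part of the length trend of the WT NMDA libraries in these correlations was not tested. *Pcp2* and *Gng13* had r = 0.98, *Gng13* and *Sebox* 0.90 and *Trpm1* and *Nyx* 0.91, whereas *Prkca* and *Gng13* had -0.92. *Vsx1* followed *Cabp5* (0.78), *Trpm1* (0.71) and *Grm6* (0.70). The mean standardized level of the 9 genes was followed most closely by *Gabrr1* (r = 0.98), *Parva*, *Idi1* (both 0.97), *Gria1*, *Pdxk* (both 0.96), *Fbxw7*, *Syt2* (both 0.95) and *Sfxn1* (0.95) over 12 libraries. That mean had r = 0.95 with *Vsx1* and 0.84 with *Cabp5*, but 0.07 with *Prkca*, 0.10 with *Pcp2* and 0.14 with *Gng13*, so it stands for only some of the 9. *Gabrr1*, a GABA receptor subunit of bipolar cells, read 40.1 and 40.2 FPKM in WT PBS, 29.0 and 29.5 in WT NMDA, 25.4 and 28.4 for PBS against 19.5 and 19.6 for NMDA with sh*Pax6*, and 38.9 and 36.5 for PBS against 43.7 and 41.5 FPKM for NMDA with JNK3 KO.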

How the data were processed

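Retinal poly(A) RNA of 12 libraries was sequenced as paired ends. The labels name both an oligo-dT primed reverse transcription and the TruSeq mRNA kit. Per the submitters' processing notes, the tools were STAR 2.7.1a, RSEM 1.3.3, edgeR 3.36.0 and R 4.1.0 with GRCm38.p6. The authors deposited FPKM per gene and per transcript, used here as given. FPKM are not counts, so the depth behind a value is unknown and no counting interval is given; precision rests on 2 libraries a group, whose median absolute log2 difference was 0.11 to 0.25.

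The 16471 genes whose mean passed 1 FPKM in 1 or more of the 6 groups were fitted as log2(FPKM + 0.1) in 1 model of 6 group means with limma 3.58.1 (lmFit, eBayes with an intensity trend, 6 residual degrees of freedom) in R 4.3.3. Fold changes are on that scale, which understates changes of low genes such as *Nyx*. Calls used a Benjamini-Hochberg adjusted p under 0.05 over all genes tested, and intervals are 95%. An exact permutation test of 2 against 2 libraries cannot go below p = 0.333. The fit was tested on simulated data. Lengths and transcripts came from GENCODE M21 (55227 of 55487 genes and 141469 of 142699 transcripts matched). The length alternative subtracted a lowess trend on log2 length (span 0.3) from each library.

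Named genes were the 9 members in every comparison, the mGluR6 cascade genes, and up to 4 called genes of each other bipolar or synapse list by size of change; the 8 genes most like the members needed a mean above 5 FPKM. Further genes, those overlapping members and those whose transcripts or marker levels are singled out, were chosen after their values were seen. The members and lists were chosen with earlier results of these data known. Values of some genes on these lists are not reported here. Alternatives are given in the closing section. Python 3 scripts used the RefSeq promoter table of GRCm38.p6.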

Additional observations from a re-analysis of the deposited data

Results flagged for a closer look

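A total of 16 differences between NMDA responses passed an adjusted p under 0.05 (limma, over all genes tested) and are listed because the same treatment gave different effects in different genotypes. They share the WT libraries. The sh*Pax6* response minus the WT response was 1.97 on the log2 scale for *Nyx*, 1.93 for *Trpm1*, 1.20 for *Prkca* and 1.10 for *Grm6*. It was -2.31 for *Gng13*, -2.02 for *Pcp2*, -1.08 for *Sebox* and -0.52 for *Cabp5*.

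The JNK3 KO response minus the WT response was 2.39 for *Nyx*, 2.34 for *Trpm1*, 1.76 for *Prkca*, 0.87 for *Grm6* and 0.67 for *Vsx1*. It was -2.38 for *Gng13*, -1.92 for *Pcp2* and -0.83 for *Sebox*. For the shared WT response, both WT NMDA libraries had higher FPKM sums than the other 10 and a length trend across all genes, and the part of either in these 16 values was not tested. The *Cabp5* difference in sh*Pax6* and the *Grm6*, *Sebox*, *Prkca* and *Vsx1* differences in JNK3 KO retinas lost their call under another scaling or without the length trend, as did *Prkca* and *Nyx* in sh*Pax6* retinas. Groups of 2 libraries are too small to look for a single library that stands apart.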

How the results depend on the processing

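Besides leaving out each library, 10 alternatives were run for each comparison. They describe the processing, and the counts of members called under them are not results about the members. Of the 630 values of single members under these 10, 562 kept direction and call, 37 lost the call, 13 gained it and 18 turned sign. Of 324 values with 1 library left out, 301 kept both.

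Removing the length trend left 4 members called in WT NMDA, 1 in JNK3 KO NMDA, 0 in JNK3 KO PBS and 4 in the JNK3 KO response difference. Of all 16452 genes, 7558, 1418, 100 and 5619 were called there. Signs turned in WT NMDA for *Vsx1* (0.26) and *Cabp5* (-0.19), in JNK3 KO NMDA for *Prkca* (-0.042) and *Sebox* (0.064), in JNK3 KO PBS for *Sebox* (-0.068), in the sh*Pax6* difference for *Vsx1* (-0.67) and *Prkca* (-0.14) and in the JNK3 KO difference for *Vsx1* (-0.12) and *Cabp5* (0.31). TPM turned *Cabp5* in WT NMDA (-0.46) and in the JNK3 KO difference (0.51) and *Vsx1* (-0.042) and *Sebox* (-0.018) in JNK3 KO PBS. As TPM, 4 members and 2722 of all 17979 genes were called in sh*Pax6* PBS, and 1 member and 154 genes in JNK3 KO PBS. TPM moved the share of higher calls in WT NMDA from 43.5% to 20.9%. Quantile normalization turned *Cabp5* in WT NMDA (-0.19) and in the JNK3 KO difference (0.28), *Nyx* in sh*Pax6* NMDA (-0.16), *Sebox* in JNK3 KO PBS (-0.025) and *Vsx1* in the sh*Pax6* difference (-0.48). It left 6 members called in sh*Pax6* NMDA, where the count of all genes is not reported here, and 134 genes in JNK3 KO PBS.

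With the spread from the compared groups only, 1 member and 976 genes were called in sh*Pax6* NMDA, 0 members and 12 genes in JNK3 KO PBS and 887 genes in sh*Pax6* PBS. Without the intensity trend, 1 member was called in JNK3 KO NMDA, and 0 members and 35 genes in JNK3 KO PBS. Without a filter 152 genes were called in JNK3 KO PBS, against 249. A further limit of 1 on the absolute log2 change left 5 members in WT NMDA and in the JNK3 KO difference and 0 in sh*Pax6* NMDA, JNK3 KO NMDA and both PBS comparisons. It left 5788, 2236, 436, 729, 38 and 5264 genes in WT NMDA, sh*Pax6* NMDA, JNK3 KO NMDA, sh*Pax6* PBS, JNK3 KO PBS and the sh*Pax6* difference. Beyond the construction of each alternative, the cause was not tested.

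With 1 library left out, its lone partner is assumed to vary like the other groups. Members called ranged from 7 to 8 in WT NMDA, 3 to 5 in sh*Pax6* NMDA, 1 to 2 in JNK3 KO NMDA and 0 to 1 in JNK3 KO PBS, were 2 in sh*Pax6* PBS throughout, and ranged from 7 to 8 in the JNK3 KO difference, with 8 in the sh*Pax6* difference. All genes called ranged from 528 to 726 in JNK3 KO NMDA (1718 with all libraries), 24 to 78 in JNK3 KO PBS and 1215 to 2715 in sh*Pax6* PBS. Signs of uncalled members turned for *Vsx1* in JNK3 KO PBS (-0.082 to 0.126) and the sh*Pax6* difference (-0.017 to 0.226), *Cabp5* in JNK3 KO NMDA (-0.017 to 0.092) and the JNK3 KO difference (-0.195 to 0.036) and *Nyx* in sh*Pax6* NMDA (-0.0047 to 0.126).

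Replicate numbers share only a number: deviations of same-numbered libraries had r from -0.10 to 0.09 between groups. With the replicate block, 153 genes were called in JNK3 KO PBS and *Gng13* gained a call in sh*Pax6* PBS (-0.33, adjusted p = 0.0353, limma); no other member's call changed. Leaving both WT NMDA libraries out of the model, an alternative chosen after seeing the data, kept all 36 member values of the 4 comparisons that do not use them.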
